A study of Mus musculus with 14 samples.

Results

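Ly6a, Ly6c1, Ly6e, Ly6d and Ly6k are 5 genes of the mouse Ly6 family, which includes the surface antigens by which the cells of this series were sorted. The genes were found by the transcript accession of their probes, and each had exactly 1 probe, so they are 5 of the 16535 genes with a symbol on the array and 5 of the 32463 genes tested. All 5 lie on chromosome 15. Their probes were A_51_P265495 (Ly6a), A_52_P230938 (Ly6c1), A_51_P148814 (Ly6e), A_51_P343517 (Ly6d) and A_51_P521052 (Ly6k), and each was well above background and not saturated on all 14 arrays.

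Ly6 proteins are small proteins with a fold of disulphide-linked fingers, and most are held on the outer cell surface by a glycosylphosphatidylinositol (GPI) anchor. Sca1, the product of Ly6a, marks mouse blood stem cells and is also carried by some mature cells. The antibody to Gr1 binds Ly6g, an antigen of neutrophils, and also Ly6c, an antigen of monocytes, granulocytes and some other blood cells. Ly6e is widely expressed and, like Ly6a, is known as a gene induced by interferon, whereas Ly6d is best known from early B cells and keratinocytes and Ly6k from the testis.

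The RNA came from FDCPmix, a multipotent blood progenitor line of mouse bone marrow origin that depends on interleukin-3, kept in maintenance culture and separated by flow cytometry. The groups were Gr1+ cells (3 arrays), Kit-Gr1- cells (3), Kit+Gr1-Sca1hi cells (3, called Sca1hi here), Kit+Gr1-Sca1lo cells (3, called Sca1lo here) and unfractionated cells (2). The labels name no Sca1 gate for Gr1+ or Kit-Gr1- cells and no Kit gate for Gr1+ cells. All groups are fractions or bulk of 1 cell line, and the series calls the samples biological replicates.

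Signals are given as log2 of the processed signal after subtracting the array's 75th percentile, called the scaled level, so a level of 0 equals that percentile. A difference is given with limma's standard error after ±, and a mean with its SD where that is stated. The words rose, fell and called are kept for genes with a Benjamini-Hochberg adjusted p under 0.05 over all 32463 genes and at least a 2-fold change. The 14 arrays lay on 4 slides. On 10 arrays the median processed signal was between 122 and 253 scanner units, but it was between 294 and 5180 on 4 arrays (Gr1+ replicate 3, Sca1lo replicate 3, Sca1hi replicate 3 and unfractionated replicate 1). On these 4 arrays, called compressed here, the interquartile range of log2 signals was 1.78 to 3.42, and on the other 10 it was 4.17 to 4.92. The 2 unfractionated arrays disagreed most, and they enter the pooled spread of every comparison, so results are also given for the 12 sorted arrays alone, a fit added after the data were seen.

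Promoter windows from RefSeq on build GRCm38.p6, from 250 bases before to 50 bases after the annotated start, are shown for 3 genes. Ly6c1 is the member with the largest differences below, Ly6g encodes the main Gr1 antigen, and Ly6f is the neighbour whose level ran in the same direction. Capitals mark the letters TTGCNNAA, a motif of C/EBP factors, which was searched on both strands.
Ly6c1 (chr15:75048788-75049087, minus strand): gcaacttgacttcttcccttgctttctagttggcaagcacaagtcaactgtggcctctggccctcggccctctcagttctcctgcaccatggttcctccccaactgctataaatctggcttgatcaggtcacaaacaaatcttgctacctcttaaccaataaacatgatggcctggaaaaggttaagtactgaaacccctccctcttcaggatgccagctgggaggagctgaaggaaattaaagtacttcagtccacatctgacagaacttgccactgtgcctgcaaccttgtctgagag
Ly6g (chr15:75155011-75155310, plus strand): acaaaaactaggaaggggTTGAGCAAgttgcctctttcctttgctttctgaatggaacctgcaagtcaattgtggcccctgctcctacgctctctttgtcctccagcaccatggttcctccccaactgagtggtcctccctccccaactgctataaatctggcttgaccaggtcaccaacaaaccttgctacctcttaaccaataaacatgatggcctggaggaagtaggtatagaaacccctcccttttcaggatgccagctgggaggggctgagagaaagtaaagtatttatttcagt
Ly6f (chr15:75268171-75268470, plus strand): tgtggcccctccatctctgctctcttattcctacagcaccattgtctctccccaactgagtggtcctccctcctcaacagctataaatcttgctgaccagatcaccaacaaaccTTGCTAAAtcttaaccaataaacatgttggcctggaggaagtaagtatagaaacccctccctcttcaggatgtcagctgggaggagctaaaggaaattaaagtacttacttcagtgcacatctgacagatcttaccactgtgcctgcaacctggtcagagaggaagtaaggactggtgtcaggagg
RefSeq lists 2 starts each for Ly6c1 and Ly6g, and the first listed is shown. The Ly6g window shown held 1 match, which begins at base -232 from the start, and the window of its other start held 0, and the Ly6f window held 1 match, at base -136. These letters were not found in either Ly6c1 window, nor in those of Ly6c2 and Ly6a2. Of all 32851 promoter windows of this length, 10.8% held the motif. The interferon-stimulated response motif (GAAA, any 2 bases, GAAA, in 3.44% of windows) and the gamma-activated motif TTCNNNGAA (in 8.3%), also searched on both strands, were not found in any of these windows. Windows of Ly6a, Ly6e and Ly6i were not available, so none of the motifs was searched in their promoters. The windows resembled each other along their length: Ly6c1 and Ly6f were identical at 86% of 250 aligned bases, Ly6c1 and Ly6g at 84.5% of 252, and Ly6g and Ly6f at 87.8% of 229. The matches are a description of the letters alone.

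Ly6a RNA was highest in Gr1+ cells, above the fraction sorted as Sca1hi, and lowest in Kit-Gr1- and Sca1lo cells. The processed signals were 5516, 7488 and 5820 in Gr1+ cells, 128, 178 and 175 in Kit-Gr1- cells, 745, 847 and 1389 in Sca1hi cells, 122, 171 and 228 in Sca1lo cells, and 6947 and 2579 in unfractionated cells. Each Gr1+ array lay above every array of the other 3 sorted fractions. Of the unfractionated pair, the signal of 6947 was on the compressed array, whose scaled level was -0.44, against 1.94 on the other. After scaling the means were 2.73 ± 0.27 in Gr1+ cells, -2.53 ± 0.60 in Kit-Gr1- cells, -0.26 ± 0.37 in Sca1hi cells, -2.58 ± 0.33 in Sca1lo cells (SD, n = 3 each) and 0.75 ± 1.69 in unfractionated cells (SD, n = 2). The order by mean was thus Gr1+, unfractionated, Sca1hi, Kit-Gr1-, Sca1lo, in which the unfractionated pair spanned the Sca1hi mean and the Kit-Gr1- and Sca1lo arrays overlapped. The neighbouring gene Ly6a2 has no named probe on the array, and whether its transcripts add to the Ly6a signal was not tested. In these bulk RNA samples, more cells that carry a transcript and more transcript per cell cannot be told apart.

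**Figure D1:**
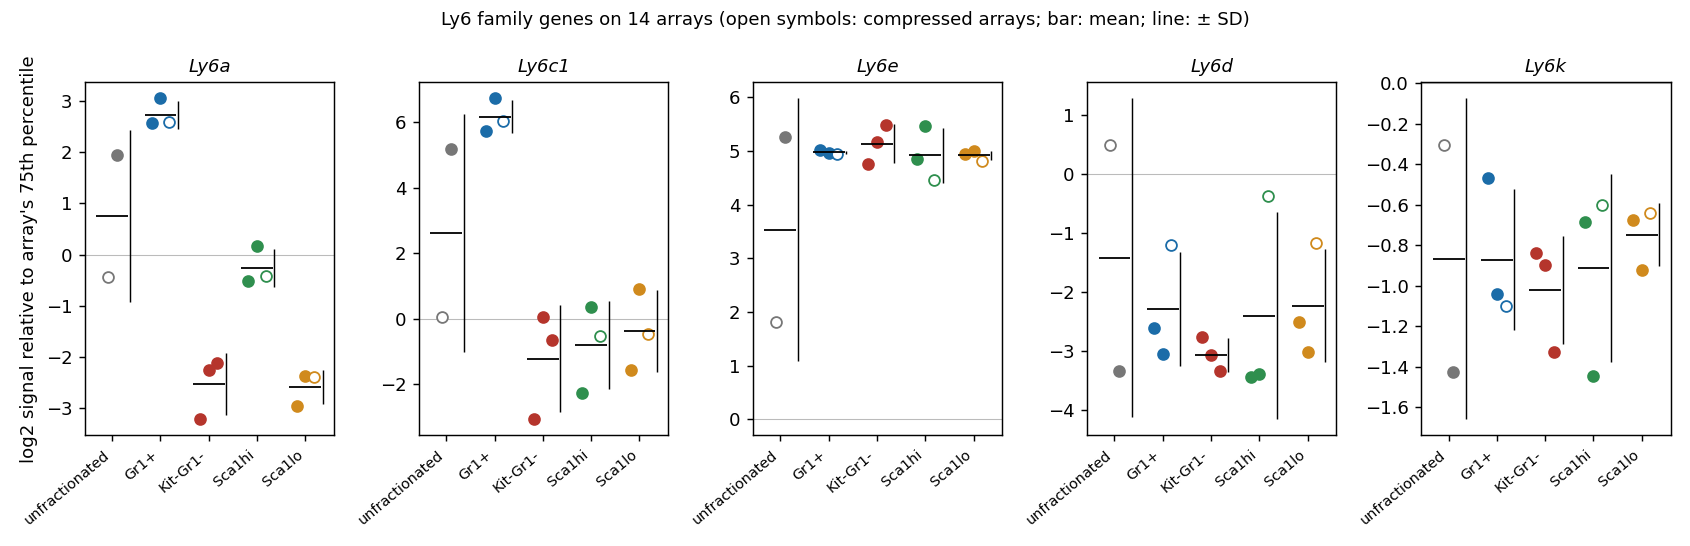
Scaled level (log2 signal relative to the array's 75th percentile) of the 5 members on each of the 14 arrays, by group, on a separate axis for each gene, with open symbols for the 4 compressed arrays, bars at the mean and lines of ± SD. The Ly6a and Ly6c1 levels of Gr1+ cells lie above all other sorted arrays, and the Ly6e, Ly6d and Ly6k levels of the sorted fractions overlap.

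Ly6a rose in Gr1+ cells against each of the other 3 sorted fractions. The difference was 2.99 ± 0.50 on the log2 scale against Sca1hi cells (7.96-fold, limma adjusted p = 0.0138), higher on 3 of 3 arrays. It was 5.31 ± 0.50 against Sca1lo cells (39.6-fold, limma adjusted p = 0.0028) and 5.26 ± 0.50 against Kit-Gr1- cells (38.3-fold, limma adjusted p = 0.000392). These comparisons share the Gr1+ arrays. Within slides, Gr1+ cells exceeded Sca1hi cells by 3.09 (slide 1) and 2.41 (slide 3), Sca1lo cells by 5.53 (slide 1) and 5.42 (slide 2), and Kit-Gr1- cells by 5.78, 5.29 and 4.70 (slides 1, 2 and 3). With slide as a block the Ly6a differences were 2.99, 5.11 and 5.26 against Sca1hi, Sca1lo and Kit-Gr1- cells, all called (limma adjusted p = 0.0303, 0.00317 and 0.00111). The call against Sca1hi cells was lost without Gr1+ replicate 2 (2.83, limma adjusted p = 0.113), without Sca1hi replicate 1 (2.86, limma adjusted p = 0.0959), without Sca1hi replicate 2 (3.20, limma adjusted p = 0.0659), with array median scaling (limma adjusted p = 0.254) and without the trend (limma adjusted p = 0.0527).

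The Ly6a probe followed the Sca1 gate between the Kit+Gr1- fractions. Sca1hi cells had scaled levels of -0.52, 0.16 and -0.42, against -2.96, -2.38 and -2.40 in Sca1lo cells, with no overlap (1.41% of all genes were higher without overlap). The difference of 2.32 ± 0.50 (4.98-fold, 95% interval 1.24 to 3.40) checks the sort and is no finding, and it was 2.44 within slide 1, 1.97 within slide 4 and 2.11 with slide as a block. No gene was called between these fractions by limma (0% of genes, with 55 of 32463 at an unadjusted p under 0.05), and the Ly6a difference had a limma adjusted p of 1.

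Kit-Gr1- cells, which carry no Sca1 gate in their label, had about the Ly6a level of Sca1lo cells. The Kit-Gr1- arrays read -3.21, -2.25 and -2.12 and the Sca1lo arrays -2.96, -2.38 and -2.40, and the difference of 0.05 ± 0.50 had a 95% interval of -1.03 to 1.13, which leaves a difference of about 2-fold either way undetected. Against Sca1hi cells, the Kit-Gr1- difference was -2.27 ± 0.50 (4.81-fold) with no overlap of arrays, where 5.56% of all genes were lower without overlap. It did not pass with all 14 arrays (limma adjusted p = 0.317), and it passed in the 12 sorted arrays alone (limma adjusted p = 0.00752). The Kit-Gr1- difference from Sca1hi cells was -2.69 within slide 1 and -2.28 within slide 3. Of 7 erythroid markers, 5 rose in Kit-Gr1- cells against Sca1hi cells, where 0.0524% of all genes were called. The markers' median difference was 3.22 against Sca1hi cells. It was 2.65 against Sca1lo cells, where Ly6a measured 0.05 and no gene was called. The markers' summed level was 25.8 to 47.9 times the arrays' 75th percentile in Kit-Gr1- cells. It was 2.42 to 4.70 times in Sca1hi cells and 4.33 to 5.67 times in Sca1lo cells. The part of red cell markers in the Ly6a difference was not tested.

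Kit RNA gave a second check of the gates. Kit, the receptor for stem cell factor, averaged 0.67 ± 0.28 in Gr1+ cells, -1.83 ± 0.22 in Kit-Gr1- cells, 0.39 ± 0.50 in Sca1hi cells and 0.37 ± 0.19 in Sca1lo cells (SD, n = 3 each). Kit rose in Gr1+ cells against Kit-Gr1- cells by 2.50 ± 0.29 (limma adjusted p = 0.001) and fell in Kit-Gr1- cells against Sca1hi cells by 2.22 ± 0.29 (limma adjusted p = 0.00986). In Kit-Gr1- cells against Sca1lo cells it was lower by a similar size, -2.20 ± 0.29, which did not pass (limma adjusted p = 0.0707). The Kit call against Sca1hi cells was lost without Sca1hi replicate 1 or 2 or any 1 Kit-Gr1- array (-2.33 to -2.02, limma adjusted p = 0.0661 to 0.108). Both Kit calls were lost with array median scaling (2.20 and -1.83, limma adjusted p = 0.229 and 0.866) and with the deposited series values (2.53 and -2.54, 0.0724 and 0.531), and the one against Sca1hi cells also with quantile normalization (0.359) and without the trend (0.0565). The Gr1+ cells, for which the label states no Kit gate, had Kit levels within the spread of the Kit+Gr1- fractions, with differences of 0.28 ± 0.29 from Sca1hi and 0.30 ± 0.29 from Sca1lo cells. Ly6g, the other gate gene, has no named probe on this array.

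Ly6c1, which encodes a part of the Gr1 antigen, was far higher in Gr1+ cells than in the 3 Gr1- fractions. Its scaled levels were 5.73, 6.72 and 6.03 in Gr1+ cells, -3.06, 0.07 and -0.64 in Kit-Gr1- cells, -2.25, 0.36 and -0.51 in Sca1hi cells, -1.57, 0.92 and -0.45 in Sca1lo cells, and 0.06 and 5.18 in unfractionated cells. The lowest Gr1+ array lay well above the highest of the Gr1- arrays, which overlapped among themselves. In each Gr1- fraction the lowest value was that of replicate 1, and these 3 arrays share slide 1.

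The Ly6c1 difference of Gr1+ cells was 7.38 ± 1.16 against Kit-Gr1- cells (166-fold, limma adjusted p = 0.00555), 6.96 ± 1.16 against Sca1hi cells (125-fold, limma adjusted p = 0.0137) and 6.53 ± 1.16 against Sca1lo cells (92.3-fold, limma adjusted p = 0.0175). Since Gr1 is the gate, the direction of this difference is a check of the sort. Within slides, the Ly6c1 difference ran from 5.67 (slide 3, against Sca1hi) to 8.79 (slide 1, against Kit-Gr1-), and with slide as a block all 3 differences were called (6.07 to 7.38). Without Gr1+ replicate 2 it was not called against Sca1hi or Sca1lo cells (limma adjusted p = 0.105 and 0.124). Both of these calls were also lost with array median scaling (limma adjusted p = 0.0988 and 0.102) and without the trend (0.0529 and 0.0547). The Sca1hi call was further lost without Sca1hi replicate 1 or 2, and the Sca1lo call without Gr1+ replicate 3, Sca1lo replicate 1 or Sca1lo replicate 3. Among the Gr1- fractions no Ly6c1 difference passed: it was -0.43 ± 1.16 in Sca1hi against Sca1lo cells, with a 95% interval of -2.94 to 2.07. Ly6c1 has a near-identical neighbour, Ly6c2, with no named probe on the array, and the probe sequences were not used here, so how the signal divides between the pair is uncertain.

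In the 3 comparisons of Gr1+ cells, then, the same pair, Ly6a and Ly6c1, were the members called, and both were higher. This is 2 of 5 members in each, where 1% of all genes were called against Sca1hi cells, 1.3% against Sca1lo cells and 1.59% against Kit-Gr1- cells. The percentages called as higher were 0.712%, 0.927% and 1.03% in the same order. Ly6c1 belongs to the Gr1 gate, and the members were chosen around the sorting antigens, so these shares are no test of the family. No member was called between Kit-Gr1- and Sca1hi cells (0.0524% of genes called) or between Kit-Gr1- and Sca1lo cells (0% called by limma, 372 genes at an unadjusted p under 0.05). Without overlap of arrays, Ly6a and Ly6c1 were higher in all 3 Gr1+ comparisons, as were 6.63% of all genes against Sca1hi, 9.51% against Sca1lo and 14% against Kit-Gr1- cells.

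**Figure D2:**
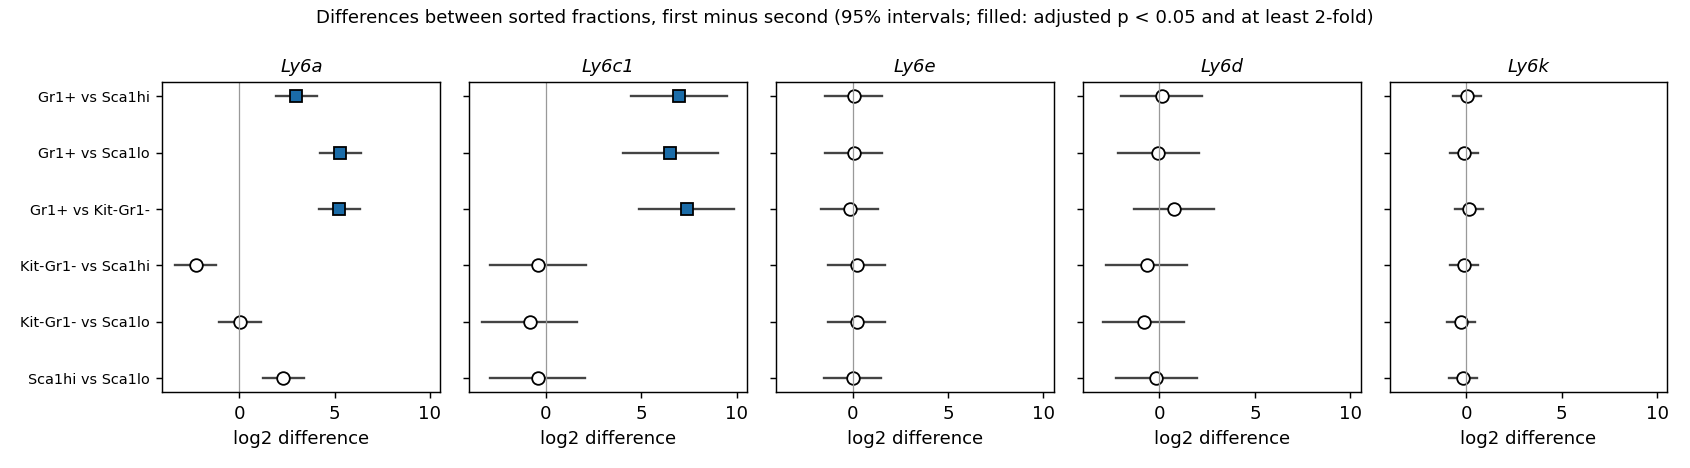
Log2 difference of each member between sorted fractions, the first named minus the second, with 95% intervals from limma; filled squares mark an adjusted p under 0.05 with at least 2-fold change. Ly6a and Ly6c1 are called in the 3 comparisons of Gr1+ cells, with Ly6a between 2.99 and 5.31 and Ly6c1 between 6.53 and 7.38, and Ly6e, Ly6d and Ly6k in none.

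Markers of mature myeloid cells were also higher in Gr1+ cells, in every comparison in which Ly6a and Ly6c1 rose. Of 10 neutrophil markers, among them the granule genes Ngp, Ltf, Camp and Lcn2, 8 rose against Kit-Gr1-, 6 against Sca1hi and 7 against Sca1lo cells. Their summed level was 1008 to 1273 times the arrays' 75th percentile in Gr1+ cells and 66.5 to 346 times in the other sorted fractions. Of 7 eosinophil markers tested, 5 rose in each of the 3 comparisons, with a summed level of 109 to 285 in Gr1+ cells and 0.809 to 3.79 in the others. Of 7 markers of monocytes and macrophages, the growth factor receptor Csf1r and the endotoxin co-receptor Cd14 rose in all 3, and Ccr2 and Adgre1 also against Sca1lo cells, with a summed level of 35.9 to 57.3 in Gr1+ cells and 2.38 to 7.33 in the others. Of the neutrophil markers 10 of 10 were well above background on every Gr1+ array, as were 7 of 7 eosinophil and 6 of 7 monocyte markers. The part of these cell types in the Ly6a and Ly6c1 differences was not tested. None of the 9 lymphocyte, 4 endothelial and 6 mast cell and basophil markers tested was called in any comparison, where at most 1.59% of all genes were. The summed level of the lymphocyte markers was nonetheless 25.2 to 35.6 in Gr1+ cells, against 8.86 to 17.4 in the other sorted fractions. That of the mast cell and basophil markers was 195 to 424 in Gr1+ cells, against 122 to 286 in Kit-Gr1- and 63.6 to 180 in Sca1hi and Sca1lo cells. The part of these markers' cells in the Ly6a and Ly6c1 differences was not tested either.

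Ly6e, the widely expressed member, held a high and nearly level signal. Over the 12 sorted arrays its processed signal ran from 28233 to 40728, with a median of 30557, and its scaled means were 4.97 ± 0.03 in Gr1+ cells, 5.13 ± 0.36 in Kit-Gr1- cells, 4.92 ± 0.51 in Sca1hi cells and 4.91 ± 0.09 in Sca1lo cells (SD, n = 3 each). No Ly6e difference between sorted fractions was called. In the 12 sorted arrays alone the largest was 0.22 ± 0.26, in Kit-Gr1- against Sca1lo cells (95% interval -0.34 to 0.78), and a change of 2-fold lay outside every such interval of that fit. With all 14 arrays the intervals were wider and each included a 2-fold change, for example -1.27 to 1.70 in Kit-Gr1- against Sca1lo cells. The 2 unfractionated arrays read 1.80 and 5.26, the lower being the compressed array, where the processed signal of 32906 was inside the sorted range.

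Ly6d and Ly6k, known mainly from other tissues, showed no called difference between fractions either. Ly6d had a median processed signal of 130 over the 12 sorted arrays, and its 4 highest scaled levels were those of the 4 compressed arrays: 0.48 in unfractionated replicate 1, -0.38 in Sca1hi replicate 3, -1.18 in Sca1lo replicate 3 and -1.20 in Gr1+ replicate 3. The other 10 arrays read between -3.45 and -2.52. Ly6k ran from -1.44 to -0.47 over the 12 sorted arrays, with means of -0.87 ± 0.35 in Gr1+, -1.02 ± 0.27 in Kit-Gr1-, -0.91 ± 0.46 in Sca1hi and -0.75 ± 0.15 in Sca1lo cells (SD, n = 3 each). Across the 14 arrays the Ly6d level had a Pearson r of -0.976 with the array's interquartile range, Ly6k -0.667 and Ly6e 0.805, while Ly6a (-0.06) and Ly6c1 (0.06) had almost none. These r describe 14 arrays of which 4 are compressed, and each level and range come from the same array. For Ly6e, unfractionated replicate 1 (1.80) lay far below the 12 sorted arrays (4.45 to 5.48). Without the 4 compressed arrays the 95% interval of the Ly6d difference was -0.12 to 1.28 in Gr1+ against Sca1hi cells and -0.41 to 0.87 against Kit-Gr1- cells.

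**Figure D3:**
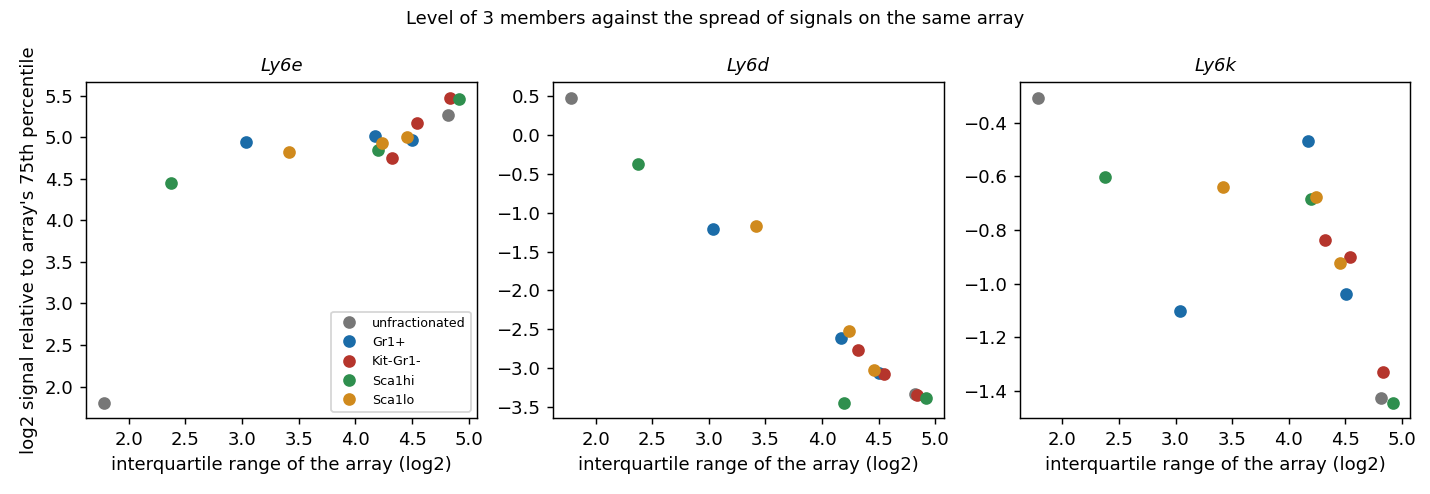
Scaled level of Ly6e, Ly6d and Ly6k (log2) against the interquartile range of log2 signals on the same array, with 1 point for each of 14 arrays, coloured by group. Ly6d is highest on the arrays with the narrowest range (r = -0.976), which belong to different groups. Ly6e (r = 0.805) is lowest on 1 array, unfractionated replicate 1, at 1.80, and lies between 4.45 and 5.48 on the 12 sorted arrays.

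In unfractionated cells against the mean of the 4 sorted fractions no gene was called by limma (0%, with 6486 at an unadjusted p under 0.05), and the members depended on which of the 2 arrays was read. Ly6a measured 1.41 ± 0.47 (limma adjusted p = 0.212), but 0.08 within slide 2 and 1.74 within slide 3. Ly6c1 measured 1.68 ± 1.09 over both arrays, -2.51 within slide 2 and 3.26 within slide 3, so its direction turned between the arrays. On the array that was not compressed, unfractionated replicate 2, the Ly6a level of 1.94 lay between the Gr1+ arrays and all other sorted arrays, and the Ly6c1 level of 5.18 did too. Without unfractionated replicate 1 the Ly6a difference was 2.60 (limma adjusted p = 0.0175), but this fit assumes that the 1 unfractionated array left varies like the sorted groups.

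Ly6i, a close relative of Ly6a that lies beside it on chromosome 15, behaved like the members called. It had scaled levels of 1.98, 2.98 and 2.20 in Gr1+ cells, -0.54, -0.45 and -1.08 in Kit-Gr1- cells, -0.46, -0.90 and -0.86 in Sca1hi cells and -0.42, -0.37 and -0.45 in Sca1lo cells. Again the Gr1+ arrays lay above the rest without overlap, as did those of 6.63% to 14% of all genes in the comparisons taken singly. Ly6i rose in Gr1+ cells by 3.13 ± 0.53 against Sca1hi (8.73-fold, limma adjusted p = 0.0155), 2.80 ± 0.53 against Sca1lo (6.99-fold, limma adjusted p = 0.022) and 3.08 ± 0.53 against Kit-Gr1- cells (8.45-fold, limma adjusted p = 0.00956). Unlike Ly6a, it showed no gap in the direction of the Sca1 gate: Sca1hi minus Sca1lo was -0.32 ± 0.53 (95% interval -1.47 to 0.83). The difference between the 2 genes in this respect was not tested. With slide as a block the Ly6i calls against Sca1hi and Sca1lo cells were lost (limma adjusted p = 0.0731 and 0.0887), and the one against Kit-Gr1- cells was not (0.0392). All 3 Ly6i calls were lost with array median scaling (limma adjusted p = 0.251, 0.424 and 0.325 against Sca1hi, Sca1lo and Kit-Gr1- cells) and with quantile normalization (0.0546, 0.0986 and 0.0792), and the calls against Sca1hi and Sca1lo cells without the trend (0.0577 and 0.0676). Leaving out Gr1+ replicate 2 ended all 3 Ly6i calls, with 2.83, 2.51 and 2.78 against Sca1hi, Sca1lo and Kit-Gr1- cells (limma adjusted p = 0.125, 0.167 and 0.0763). The call against Sca1hi cells was also lost without Sca1hi replicate 1 or 2, that against Sca1lo cells without Gr1+ replicate 3 or any 1 Sca1lo array, and that against Kit-Gr1- cells without Kit-Gr1- replicate 3.

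Ly6f, on the far side of Ly6c1, pointed the same way at a lower size and from low signals. Its processed signals were 264 to 568 in Gr1+ cells, 66.2 to 162 in Kit-Gr1-, 70.2 to 188 in Sca1hi and 117 to 189 in Sca1lo cells. Its scaled levels were -1.43, -0.67 and -1.89 in Gr1+ cells, -2.88, -3.05 and -3.52 in Kit-Gr1- cells, -2.60, -3.43 and -3.31 in Sca1hi cells and -2.79, -2.92 and -2.67 in Sca1lo cells. The Gr1+ arrays lay above the others without overlap, as did those of 6.63% to 14% of all genes in the comparisons taken singly. The Ly6f differences of 1.46 ± 0.47 to 1.82 ± 0.47 did not pass with all 14 arrays (limma adjusted p = 0.258 against Sca1lo, 0.128 against Sca1hi and 0.0957 against Kit-Gr1-). They passed in the 12 sorted arrays alone (limma adjusted p = 0.0311, 0.0111 and 0.00928 in the same order). Whether transcripts of Ly6c1 or other relatives add to the Ly6i and Ly6f signals was not tested.

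The rest of the Ly6 cluster stayed near the level of all genes. Of 17 relatives listed on chromosome 15, 10 were on the array, and Ly6i was the 1 called in each of the 3 Gr1+ comparisons. The median difference over these 10 was 0.11 against Sca1hi, 0.10 against Sca1lo and 0.39 against Kit-Gr1- cells, beside -0.06, -0.02 and 0.22 over all genes. Psca, Slurp1, Lypd2, Lynx1, Gml2, Ly6m, Ly6h and Gpihbp1 measured between -0.19 and 0.54 in these comparisons of Gr1+ cells, bar Slurp1 at -0.22 against Sca1lo cells, and none passed. Several had low signals, where a flat difference says little. The median processed signal over the 12 sorted arrays was 137 for Slurp1, 152 for Gml2, 171 for Psca, 276 for Ly6m and 308 for Ly6h. It was 561 for Lynx1, 1519 for Lypd2 and 1636 for Gpihbp1. Of 9 neighbours at the locus that are not Ly6 genes, such as Arc, Top1mt and Mafa, none passed in any comparison. At most 1.59% of all genes were called in a comparison, so none among 9 is no result about these neighbours. In Gr1+ against Sca1lo cells their limma intervals were narrowest for Top1mt (-0.78 to 0.30) and widest for Cyp11b2 (-2.95 to 2.65). The interval was -2.58 to 2.55 for Mafa and -1.67 to 1.40 for Arc. In gene order the called genes, Ly6i, Ly6a and Ly6c1, were consecutive among those measured. Ly6e lay before them and Ly6f, after 4 genes with no named probe, behind them. Whether the difference ends with these genes was not tested.

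**Figure D4:**
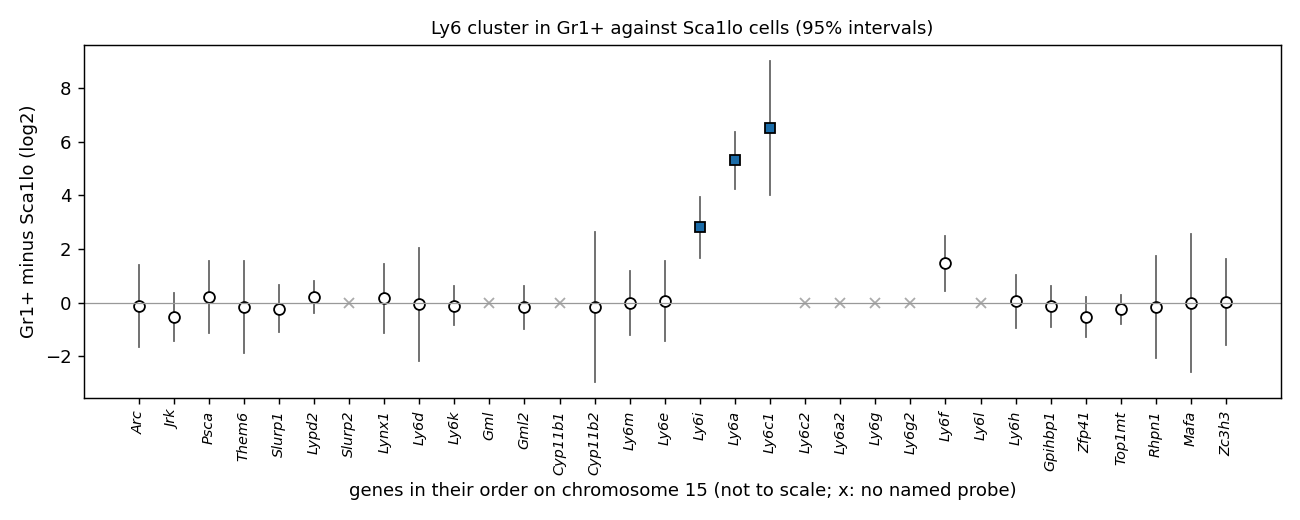
Log2 difference of Gr1+ minus Sca1lo cells for the genes of the Ly6 cluster and its neighbours in their order along chromosome 15 (not to scale), with 95% intervals from limma, filled squares for genes called and a grey x for genes with no named probe. Ly6i (2.80), Ly6a (5.31) and Ly6c1 (6.53) stand above the line as neighbours, and Ly6f lies at 1.46 without a call.

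Among relatives outside the cluster, 1 gene was called in 1 comparison, Gr1+ against Kit-Gr1- cells, where 1.59% of all genes were called. None of 5 Ly6 genes of the major histocompatibility complex was called in any comparison. Of 16 other genes with the Ly6 and urokinase receptor fold, Cd59a, which protects cells from complement, fell in Gr1+ cells against Kit-Gr1- cells by 1.47 ± 0.28 (limma adjusted p = 0.0185), and it measured -1.13 ± 0.28 against Sca1hi and -0.94 ± 0.28 against Sca1lo cells without a call. With slide as a block Cd59a was called against both (-1.13 and -1.09, limma adjusted p = 0.0498 and 0.0414), and in the 12 sorted arrays alone against Sca1hi cells (limma adjusted p = 0.0256). The Cd59a call ended without Gr1+ replicate 2 or 3 or without Kit-Gr1- replicate 1 or 3 (-1.56 to -1.32), with array median scaling (limma adjusted p = 0.342), with the deposited series values (0.994) and without the trend (0.0554). Plaur, the urokinase receptor, measured 2.29 ± 0.89 to 2.56 ± 0.89 and Cd177, a neutrophil antigen, 0.98 ± 0.46 to 1.35 ± 0.46 in Gr1+ cells against the 3 other fractions, and neither passed. The Plaur arrays of Gr1+ cells, at 3.76 to 4.41, lay above all other sorted arrays, at 0.67 to 2.37. In the Gr1+ comparisons taken singly, 6.63% to 14% of all genes were higher without overlap.

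Of 27 genes tested for making or trimming the GPI anchor, which holds the Ly6 proteins on the membrane, 2 rose and none fell in Gr1+ against Kit-Gr1- cells. Of all genes 1.03% were called as higher in this comparison, and 1.59% in either direction. Mppe1, a phosphatase that remodels the anchor, rose by 2.89 ± 0.54 (7.40-fold, limma adjusted p = 0.016), with levels of 1.83, 2.94 and 2.64 in Gr1+ cells and -1.16, -0.11 and 0.01 in Kit-Gr1- cells. Mppe1 measured 2.38 ± 0.54 against Sca1lo and 1.93 ± 0.54 against Sca1hi cells, which did not pass with all 14 arrays (limma adjusted p = 0.0542 and 0.167) and passed in the 12 sorted arrays alone (0.00124 and 0.00485). Pgap6, a lipase that releases GPI-anchored proteins, rose by 1.57 ± 0.28 against Kit-Gr1- cells (limma adjusted p = 0.0119) and by 1.41 ± 0.28 against Sca1lo cells (limma adjusted p = 0.0274). Against Sca1hi cells Pgap6 measured 1.13 ± 0.28, which did not pass with all 14 arrays (limma adjusted p = 0.093) and passed in the 12 sorted arrays alone (0.00948). The other 25 genes did not pass in any comparison, and the median over the list, 0.02 against Kit-Gr1- cells, was below that of all genes, 0.22. Without Gr1+ replicate 2 these 3 calls were lost (limma adjusted p = 0.103 to 0.209), as they were without Gr1+ replicate 3. Both calls against Kit-Gr1- cells were also lost without Kit-Gr1- replicate 1, and the Pgap6 call against Sca1lo cells without any 1 Sca1lo array or Kit-Gr1- replicate 2 or 3. With array median scaling all 3 calls were lost (limma adjusted p = 0.477 for Mppe1, 0.96 and 1 for Pgap6), and with the deposited series values both Pgap6 calls (0.538 and 0.869). Without the trend the Pgap6 call against Sca1lo cells was lost (0.0812).

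Of 27 genes of the interferon response tested, none was called as higher in the 3 comparisons of Gr1+ cells. Of all genes 0.712% were called as higher against Sca1hi, 0.927% against Sca1lo and 1.03% against Kit-Gr1- cells. At these shares, none among 27 genes is no result about the list. Their differences ran from -2.20 to 0.95 against Sca1hi, -2.27 to 1.03 against Sca1lo and -2.19 to 2.29 against Kit-Gr1- cells. They ran from -2.78 to 0.50 in Kit-Gr1- against Sca1hi cells and from -0.24 to 1.40 in Sca1hi against Sca1lo cells, without a call. Usp18, an interferon-induced protease that restrains the interferon receptor, fell in Gr1+ cells by 2.20 ± 0.35 against Sca1hi (limma adjusted p = 0.0113), 2.27 ± 0.35 against Sca1lo (limma adjusted p = 0.0091) and 2.19 ± 0.35 against Kit-Gr1- cells (limma adjusted p = 0.00629). Its levels were -1.37, -1.82 and -1.01 in Gr1+ cells, against 0.36 to 1.02 in Kit-Gr1- cells, 0.27 to 1.12 in Sca1hi cells and 0.80 to 0.91 in Sca1lo cells. The interferon regulatory factor Irf7, at 0.12 ± 0.78 to 0.72 ± 0.78, did not pass in Gr1+ cells. The list's median was -0.28 against Sca1hi, -0.08 against Sca1lo and -0.08 against Kit-Gr1- cells, beside -0.06, -0.02 and 0.22 over all genes. Any part of interferon in the Ly6a differences was not tested. The Usp18 calls were lost without Gr1+ replicate 2 (limma adjusted p = 0.0993, 0.0821 and 0.056 in the same order). That against Sca1hi cells was also lost without Sca1hi replicate 1 or 2, and that against Sca1lo cells without Sca1lo replicate 1 or 2. All 3 Usp18 calls were lost with array median scaling (limma adjusted p = 0.52, 0.352 and 0.203), and that against Kit-Gr1- cells with the deposited series values (0.0817).

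The genes whose levels ran most like those of a member over the 14 arrays were taken from 1430 genes with group means that span at least 2 on the log2 scale. For Ly6a they were Sh3tc1, an adaptor protein (Pearson r = 0.969), Arl11, a small GTPase of macrophages (0.957), Unc93b1, a chaperone of endosomal Toll-like receptors (0.950), Csf3r, the receptor for granulocyte colony-stimulating factor (0.948), and Mapk13, a stress kinase (0.942). Over the 10 arrays that were not compressed these r were 0.937 to 0.973. For Ly6c1 they were Hp, or haptoglobin (0.994), the transcription factor Cebpd (0.993), the peptidoglycan sensor Nod1 (0.986), eosinophil peroxidase, Epx (0.985), and the complement gene C3 (0.985), with 0.990 to 0.995 over the 10 arrays.

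The genes most like Ly6e were Spidr (0.956), H2ac13 (0.955), Slc39a11 (0.953), Cdc25a (0.953) and Gpx1 (0.945), but over the 10 arrays that were not compressed their r fell to between 0.182 and 0.498. The levels of Ly6a and Ly6c1 themselves had an r of 0.890, and Ly6i had 0.836 with Ly6a and 0.923 with Ly6c1. All these r are descriptions over arrays of the same 5 groups, and each pair of levels comes from the same arrays.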

How the data were processed

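RNA of FDCPmix cells was measured on 14 single-colour Agilent arrays. Per the file headers, the authors read the scans with Agilent Feature Extraction 10.1.1.1, and the deposited intensity of each spot is a processed, background-subtracted signal on a linear scale. The deposited series matrix holds log2 values, checked to equal the log2 of that signal with a largest difference of 5e-09, so it is unscaled between arrays. The array design names build mm8, and a RefSeq table of another build was used for symbols alone.

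From these intensities, control spots and outlier flags were left out and spots of a probe averaged. The log2 signal minus the array's 75th percentile was used, for probes well above background on at least 3 of 14 arrays (40278 probes). The probe with the highest mean stood for its gene (32463 genes, 16461 with a symbol). All arrays entered 1 fit of 5 groups without covariates (R 4.3.3, limma 3.58.1, lmFit and eBayes with trend, 9 residual and 4.03 prior degrees of freedom), with two-sided tests. Figures used matplotlib 3.10.9 under Python 3.11.15, pandas 2.3.3 and numpy 2.4.6. The step was run on simulated data with independent normal errors and no array effects, which does not cover the compressed arrays. The number of arrays limits the precision.

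The members, lists and comparisons were chosen with earlier results of these data known. Named by rule were the members, Kit, called genes of each list (up to 4 by size), and the 5 genes most like Ly6a, Ly6c1 and Ly6e by Pearson r. Ly6f, Plaur, Cd177, Irf7 and the other relatives given as values were chosen after their values were seen. Protein sequences are not used here. There were 13 other settings and 14 fits that each left out 1 array.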

Additional observations from a re-analysis of the deposited data

How the results depend on the processing

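The sign of a called Ly6a or Ly6c1 difference never turned in 13 other settings and 14 fits that left out 1 array (of 940 refitted member differences 83 turned sign, 0 of them called). Ly6a in Gr1+ cells kept its calls throughout against Kit-Gr1- cells (4.79 to 5.46, adjusted p to 0.0149) and Sca1lo cells (4.82 to 5.60, adjusted p to 0.0338). Against Sca1hi cells it ranged from 2.70 to 3.34. With array median scaling 0 members were called against Sca1hi cells and 1 against Sca1lo cells (Ly6a 3.08, adjusted p = 0.254, against Sca1hi), and without the trend also 0 and 1 (Ly6a 2.99, adjusted p = 0.0527). In Kit-Gr1- against Sca1hi cells 1 member, Ly6a, was called with array weights (-1.89, adjusted p = 0.000173), without the 4 compressed arrays (-2.35, 0.0356) and in the 12 sorted arrays alone (-2.27, 0.00752). With array weights 1 member, Ly6a, was called between Sca1hi and Sca1lo cells (2.25, adjusted p = 0.0053), and Ly6c1 (1.56) and Cd59a (-0.13) in Kit-Gr1- against Sca1hi cells turned sign. In unfractionated cells 1 member, Ly6a, was called without the compressed arrays (2.58, adjusted p = 0.0446), where the 1 unfractionated array left is assumed to vary like the sorted groups, and Ly6a was 0.08 within slide 2. Turned signs there were Ly6e 0.20, Ly6k -0.52 and Usp18 0.22 without the compressed arrays, Ly6k -0.44 and Pgap6 -0.09 with array median scaling, and Cd59a 1.06, Usp18 0.96 and Kit 0.84 with the deposited series values. The cause of these changes was not tested.

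Leaving out 1 array in turn, the members called were 0 to 2 in Gr1+ against Sca1hi, 1 to 2 against Sca1lo and 2 to 2 against Kit-Gr1- cells, 0 to 1 in Kit-Gr1- against Sca1hi cells, and 0 to 0 in Kit-Gr1- against Sca1lo and in Sca1hi against Sca1lo cells. Leaving out either unfractionated array left 1 in that group, so no such count is given for unfractionated cells. Ly6a ranged over 2.83 to 3.20, 5.12 to 5.41, 4.92 to 5.46, -2.47 to -1.92, -0.15 to 0.39, 2.10 to 2.45 and 0.22 to 2.60 in the order Gr1+ against Sca1hi, Sca1lo and Kit-Gr1-, Kit-Gr1- against Sca1hi and Sca1lo, Sca1hi against Sca1lo, and unfractionated. In unfractionated cells Ly6c1 ranged from -0.88 to 4.24, Ly6e from -3.18 to 0.28, Ly6d from -0.84 to 2.99, Ly6k from -0.54 to 0.58, Ly6i from -1.09 to 1.75, Mppe1 from -1.21 to 1.33, Pgap6 from -0.06 to 0.79 and Usp18 from -0.99 to 0.24. The Ly6a call in Kit-Gr1- against Sca1hi cells appeared without either unfractionated array.

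Genes called in Gr1+ against Sca1hi, Sca1lo and Kit-Gr1- cells numbered 325, 421 and 517. They were 26, 76 and 191 with array median scaling, 113, 150 and 338 without the trend, 1201, 1287 and 1279 in the 12 sorted arrays, 1872, 1781 and 1818 without the compressed arrays, and 2257, 2137 and 1956 with array weights. Against Sca1hi cells 231 were higher and 94 lower, and 23 and 3 with array median scaling. Against Sca1lo cells 301 were higher and 120 lower, and 70 and 6 with it. That scaling moved the median of all genes to -0.08, against 0.22, in Gr1+ against Kit-Gr1- cells. In Kit-Gr1- against Sca1hi cells 17 genes were called, 119 in the 12 sorted arrays, 108 without the compressed arrays and 922 with array weights. In Kit-Gr1- against Sca1lo cells 0 were called, 17 in the 12 sorted arrays and 343 with array weights, and in Sca1hi against Sca1lo cells 0, and 15 with array weights. In unfractionated cells 0 were called, and 16 with the deposited series values.

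The labels number the replicates, but the numbers did not meet the rule for pairs: of 18 same-numbered pairs 14 had deviations correlated over 0.1 (r from -0.231 to 0.867), and 11 of 12 samples correlated best with their own number. Replicate 3 was the compressed array in Gr1+, Sca1hi and Sca1lo cells, and the highest r joined Sca1hi and Gr1+ replicate 3. The lowest joined Sca1hi replicate 3 and Kit-Gr1- replicate 3, which was not compressed. For replicate 3, number and compression therefore cannot be told apart, also in the block below. The replicate 1 arrays of all sorted fractions lay on slide 1, so number and slide cannot be told apart there. With replicate number as a block 508, 573 and 670 genes were called in the 3 Gr1+ comparisons. With the replicate block 2 members stayed called in each Gr1+ comparison, and Ly6a measured 2.99, 5.31 and 5.26 against Sca1hi, Sca1lo and Kit-Gr1- cells (adjusted p = 0.00173, 0.000125 and 7.78e-05).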
